A study of Mus musculus with 6 samples.

Results

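The genes described here are 9 serine protease genes of 1 cluster on mouse chromosome 14, the granzymes Gzmb, Gzmc, Gzmd, Gzme and Gzmf, the mast cell proteases Mcpt8, Mcpt4 and Cma1 and cathepsin G (Ctsg), with the granule gene Nkg7 on chromosome 7. Nkg7 encodes a granule membrane protein and no protease. These 10 genes were chosen by name and selected on their measured RNA level in these same libraries, lower with Arid3a-FLAG than with LUC, out of 53801 genes in the deposited count table. Of the 10, 9 had enough counts to be tested and Gzmf had 0 counts in all 6 libraries. Because of that choice, their values are a description, and where calls of members are counted the count restates the choice and supports nothing.

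RNA was sequenced from mouse fetal liver cells of embryos at E12.5-13.5, of a B6J.129(Cg) strain in which Cas9 and EGFP are expressed from the Rosa26 locus under the ubiquitous CAG promoter. All 6 libraries carried a guide against Gata1 (sgGata1), and their labels name Gata1s, a shortened GATA1 that lacks the amino-terminal stretch of this blood transcription factor. All 6 also carried a miR-125b transgene and received doxycycline at 1 μg/mL for 48 h. The 3 Arid3a-FLAG libraries had a doxycycline-inducible Arid3a-FLAG construct, a tagged form of the ARID family transcription factor Arid3a, and the 3 control libraries had a doxycycline-inducible construct called LUC. The sources used here do not say whether the cells were a pool or a clone, or which embryos gave which library.

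Library totals ran from 15728150 to 18249053 gene counts. The construct entry had 0 counts in each LUC library and 2758 to 3348 counts in the Arid3a-FLAG libraries. The mouse Arid3a gene, counted apart from the construct, stood at 9.22 to 15.9 CPM (read counts scaled to library size) with LUC and 12.6 to 13.6 with Arid3a-FLAG, and Gata1 at 264 to 319 and 320.5 to 333 CPM, neither past the test. LUC library 2 stood apart from the other 5 along the second principal component, which held 24.0% of the variance. The labelled tissue was liver, but hepatocyte markers were near 0: of 10, 9 stayed under 1 CPM in every library, Alb among them, and Afp stood at 15.7 to 25.9 CPM. Megakaryocyte markers summed to 6689 to 8421 CPM, and of the 12, 4 rose, 1 fell and 7 did not pass.

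Granule serine proteases are made as inactive precursors, activated by the dipeptidyl peptidase cathepsin C and stored bound to the proteoglycan serglycin. Granzymes enter target cells from the granules of cytotoxic lymphocytes through perforin, cathepsin G belongs to the azurophil granules of neutrophil precursors, and chymases to mast cells. Mouse mast cells and basophils make granzyme B as well, and Mcpt8 is known as a basophil protease. The genes arose by duplication, so neighbours in the cluster can be close to identical in sequence.

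That likeness bears on how reads of close copies are counted. The spliced coding sequences of the granzymes (GENCODE M21 transcripts) begin as follows, for the first 60 bases, with capitals where a base is unlike that of Gzmd at the same place.
Gzmd: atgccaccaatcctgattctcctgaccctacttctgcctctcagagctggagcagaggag
Gzme: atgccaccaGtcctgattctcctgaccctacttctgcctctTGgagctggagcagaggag
Gzmc: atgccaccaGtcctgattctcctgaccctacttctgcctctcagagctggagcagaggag
Gzmf: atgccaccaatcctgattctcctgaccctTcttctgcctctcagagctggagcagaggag
Gzmb: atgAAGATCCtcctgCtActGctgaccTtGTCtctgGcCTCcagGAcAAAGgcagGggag
Over these 60 bases Gzme had 3 bases unlike Gzmd, Gzmc 1, Gzmf 1 and Gzmb 25. Over the whole coding sequence, with gaps counted as unlike, Gzmd was 93.3% identical to Gzme, 83.6% to Gzmf, 71.3% to Gzmc and 65.3% to Gzmb. Of all 50-base windows in the Gzmd transcript, 21.9% also occurred in a transcript of another gene, and 20.6% did for Gzme, 7.36% for Gzmf, 4.14% for Gzmc and 0 for Gzmb. With windows of 100 bases the shares were 0.231% for Gzmd and 0 for the other 4 granzymes. The sources used here give neither the read length nor the handling of reads that fit several genes, so the split of reads between Gzmd and Gzme is uncertain.

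The 250 bases before the RefSeq start site (GRCm38.p6) are printed for the genes that were lowest with Arid3a-FLAG (Gzmd, Gzme, Nkg7, Mcpt8) and for 3 that were less low (Gzmc, Gzmb, Cma1). Capitals mark TGTGGT, the core letters bound by RUNX blood transcription factors, which reads ACCACA when it lies on the other strand.
Gzmd (chr14:56132594-56132843, minus strand): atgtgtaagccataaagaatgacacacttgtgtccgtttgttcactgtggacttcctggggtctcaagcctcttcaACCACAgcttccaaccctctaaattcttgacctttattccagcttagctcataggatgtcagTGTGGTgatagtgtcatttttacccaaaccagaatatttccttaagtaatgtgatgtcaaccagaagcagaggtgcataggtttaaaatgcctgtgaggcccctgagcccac
Gzme (chr14:56120626-56120875, minus strand): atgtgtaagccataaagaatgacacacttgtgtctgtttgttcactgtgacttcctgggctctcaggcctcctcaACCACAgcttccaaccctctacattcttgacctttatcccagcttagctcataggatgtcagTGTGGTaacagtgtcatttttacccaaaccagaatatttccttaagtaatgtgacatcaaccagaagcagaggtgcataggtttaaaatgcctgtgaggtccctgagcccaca
Gzmc (chr14:56234658-56234907, minus strand): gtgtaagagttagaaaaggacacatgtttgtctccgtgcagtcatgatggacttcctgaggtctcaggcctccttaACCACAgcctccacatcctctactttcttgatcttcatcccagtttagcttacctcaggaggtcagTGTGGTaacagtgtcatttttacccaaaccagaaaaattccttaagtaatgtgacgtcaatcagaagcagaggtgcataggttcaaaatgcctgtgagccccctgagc
Gzmb (chr14:56262335-56262584, minus strand): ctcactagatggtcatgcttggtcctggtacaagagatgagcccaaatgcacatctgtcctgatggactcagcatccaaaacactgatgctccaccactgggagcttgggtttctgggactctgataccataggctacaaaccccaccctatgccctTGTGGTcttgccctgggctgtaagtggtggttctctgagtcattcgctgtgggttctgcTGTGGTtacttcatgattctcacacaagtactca
Mcpt8 (chr14:56085198-56085447, minus strand): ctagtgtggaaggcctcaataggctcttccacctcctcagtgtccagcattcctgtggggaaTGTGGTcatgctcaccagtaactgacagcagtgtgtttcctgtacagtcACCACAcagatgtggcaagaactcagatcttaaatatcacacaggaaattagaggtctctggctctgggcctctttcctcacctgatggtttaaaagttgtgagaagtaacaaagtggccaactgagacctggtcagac
Nkg7 (chr7:43436888-43437137, plus strand): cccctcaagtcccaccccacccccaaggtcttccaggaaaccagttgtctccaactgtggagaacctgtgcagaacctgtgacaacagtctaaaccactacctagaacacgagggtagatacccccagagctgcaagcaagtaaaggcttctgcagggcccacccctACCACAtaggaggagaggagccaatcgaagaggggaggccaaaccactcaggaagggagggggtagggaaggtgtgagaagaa
Cma1 (chr14:55944676-55944925, minus strand): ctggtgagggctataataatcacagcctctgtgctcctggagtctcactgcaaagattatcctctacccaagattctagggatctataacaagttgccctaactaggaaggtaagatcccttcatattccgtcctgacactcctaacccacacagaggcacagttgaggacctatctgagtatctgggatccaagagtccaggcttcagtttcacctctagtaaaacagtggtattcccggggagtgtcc
The Gzmd and Gzme sequences were 94.8% identical, Gzmd and Gzmc 80.5%, Gzmd and Gzmf 74.5% and Gzmd and Gzmb 45.1%. The Gzmf window starts elsewhere in the shared sequence: its TGTGGT matches began at -195 and -133, against -174 and -112 in Gzmd. Bases at the ends then had no partner and counted as unlike, so the values of Gzmc and Gzmf are not ranked. The value for Gzmb was no higher than that of Gzmd against Nkg7 (46.7%), which is no relative. TGTGGT occurred on either strand in 9 of the 10 upstream sequences, all except that of Cma1, and in 14% of 32851 RefSeq upstream sequences of the same length. Gzmc, Gzmd, Gzme and Gzmf each carried 1 match on either strand within 70.2% to 94.8% identical sequence, so these 4 are not independent. The pair of matches in Gzmd, with starts at -174 and -112 from the start site, stood at -174 and -108 in Gzmc, whose level differed far less between the groups. The letters ATTAAA, an AT-rich core given for ARID3A in motif collections, occurred in 0 of the 10 and in 12.7% of all. Such matches are letters in a window and no measure of binding.

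Gzmd and Gzme, adjacent genes, were the granzymes with the largest differences. Gzmd (ENSMUSG00000059256, chromosome 14, 56129556 to 56132608, minus strand, mm10) had 142, 149 and 154 CPM in LUC libraries 1, 2 and 3 and 13.9, 12.0 and 21.1 CPM in Arid3a-FLAG libraries 1, 2 and 3. Every LUC library lay far above every Arid3a-FLAG library. The log2 fold change was -3.25 (SE 0.18, 95% interval -3.64 to -2.86), or 9.51-fold lower with Arid3a-FLAG, the rank 6 lowest of 13631 tested genes. Gzme (ENSMUSG00000022156, 56117626 to 56120625, minus strand) had 7.28, 6.28 and 7.5 CPM with LUC, against 1.30, 0.813 and 0.879 with Arid3a-FLAG. Its groups were separate as well, with 19.6 to 23.7 Gzmd counts per Gzme count in the LUC libraries and 10.7 to 24.0 in the Arid3a-FLAG libraries. The log2 fold change of Gzme was -2.81 (SE 0.25), 7.01-fold lower.

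Gzmc and Gzmb, at the other end of the granzyme row, differed much less. Gzmc (ENSMUSG00000079186, 56231441 to 56234656, minus strand) had 11.04, 13.01 and 8.85 CPM with LUC, against 6.64, 5.98 and 5.52 with Arid3a-FLAG, the log2 fold change being -0.85 (SE 0.18). Granzyme B, the caspase-activating granzyme of cytotoxic cells (Gzmb, ENSMUSG00000015437, 56258838 to 56262260, minus strand), had 426, 567 and 489 CPM with LUC, against 235, 206 and 372 with Arid3a-FLAG. The groups did not overlap for either gene, but the gap was narrow: the highest Arid3a-FLAG library of Gzmb reached 372 CPM against 426 CPM in the lowest LUC library. The log2 fold change of Gzmb was -0.87 (SE 0.20, 95% interval -1.30 to -0.43), 1.82-fold lower. Within each library there were 0.262 to 0.335 Gzmd counts per Gzmb count with LUC and 0.0566 to 0.0592 with Arid3a-FLAG. So the ratio of these granzymes differed between the groups and was nearly constant among the Arid3a-FLAG libraries.

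Gzmf (ENSMUSG00000015441, 56205263 to 56211417, minus strand) had 0 counts throughout, which allows at most 0.162 to 0.196 CPM per library (3 counts). Added together, Gzmc to Gzmg and Gzmn, a sum that needs no split between near copies, came to 161 to 171 CPM with LUC, against 18.8 to 27.5 with Arid3a-FLAG. The log2 fold change of this sum was -2.88 (SE 0.13), and that of the sum with Gzmb included was -1.17 (SE 0.19).

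The other proteases of the cluster ranged from a difference near that of Gzme to a small one. Mcpt8 (ENSMUSG00000022157, 56082166 to 56085273, minus strand) had 49.98, 70.2 and 50.8 CPM with LUC, against 9.56, 6.73 and 15.5 with Arid3a-FLAG, without overlap. Its log2 fold change was -2.43 (SE 0.25), 5.38-fold lower. Cathepsin G (Ctsg, ENSMUSG00000040314, 56099881 to 56102574, minus strand), which lies between Mcpt8 and Gzme, was scarce, at 4.10, 4.58 and 4.86 CPM with LUC, against 1.68, 1.28 and 2.51 with Arid3a-FLAG. Its log2 fold change was -1.31 (SE 0.27), much nearer to 0 than those of the genes on either side. The mast cell chymase Mcpt4 (ENSMUSG00000061068, 56059629 to 56062313, minus strand) had 3.18, 4.64 and 3.94 CPM with LUC, against 1.18, 1.05 and 2.70 with Arid3a-FLAG, the log2 fold change being -1.26 (SE 0.35). Cma1, the abundant chymase of the set (ENSMUSG00000022225, 55941451 to 55944675, minus strand), had 221, 259.5 and 256 CPM with LUC, against 165, 120.3 and 236 with Arid3a-FLAG. Arid3a-FLAG library 3 lay inside the LUC range, and the log2 fold change was -0.50 (SE 0.20).

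Nkg7 (ENSMUSG00000004612, chromosome 7, 43437073 to 43438249, plus strand) had 25.5, 34.4 and 19.6 CPM with LUC, against 3.85, 3.66 and 3.08 with Arid3a-FLAG. The Arid3a-FLAG libraries were close together and all below LUC, with a log2 fold change at -2.90 (SE 0.22), 7.48-fold lower. NKG7 takes part in granule release by cytotoxic lymphocytes.

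**Figure D1:**
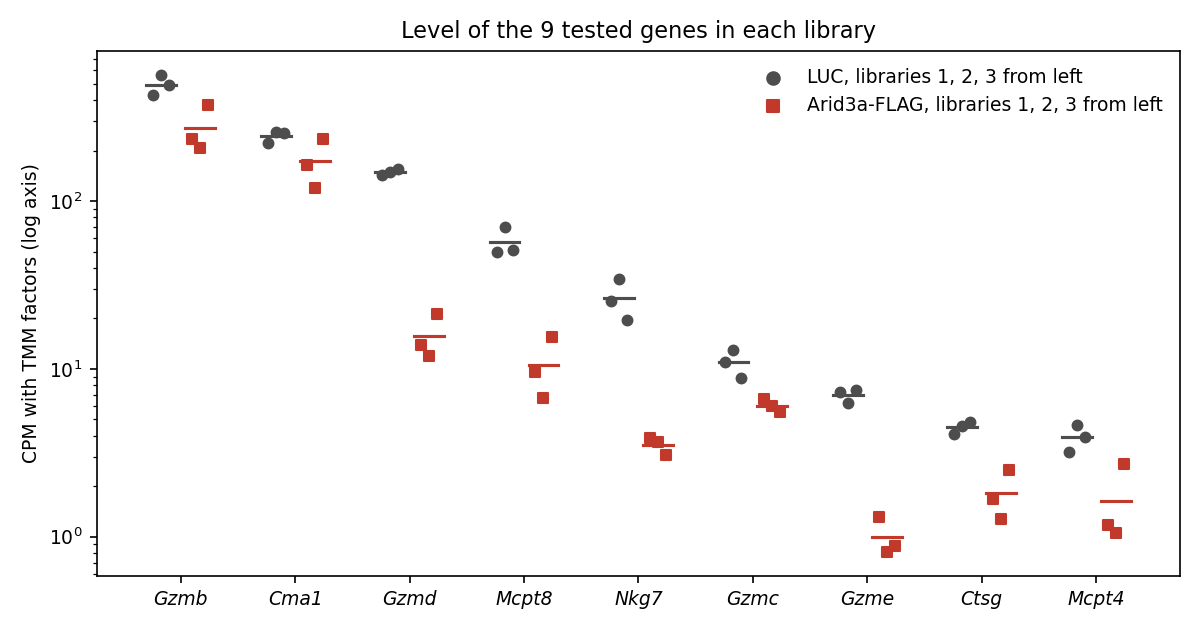
CPM with TMM scaling (log axis) of the 9 tested genes in each library, LUC as grey circles and Arid3a-FLAG as red squares, with horizontal lines at the group means. Gzmd lay at 142 to 154 with LUC and 12.0 to 21.1 with Arid3a-FLAG, while the groups of Cma1 overlapped.

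By edgeR's quasi-likelihood test over all genes, 7 of the 9 tested members were lower at an adjusted p under 0.05, beside 3.87% of all tested genes (0 members were higher, beside 3.43%, or 7.29% in either direction), and 8 of 9 had every LUC library above every Arid3a-FLAG library, beside 16.5% of all. A log2 fold change of -2 or less was seen in 4 of 9 and in 0.257% of all. The choice of members used this contrast, so nothing is read from these shares or from the calls kept or lost below. Without Arid3a-FLAG library 1, Arid3a-FLAG library 2 or LUC library 1, 4 members were called lower, namely Gzmd, Gzme, Mcpt8 and Nkg7. Gzmc lost its call also without Arid3a-FLAG library 3, and Gzmb without LUC library 3.

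Per kilobase of exon, which allows genes to be compared, the order in the LUC libraries was Gzmb (344 ± 49.3 CPM per kb, SD, n = 3), Cma1 (225 ± 19.4), Gzmd (154 ± 6.22), Mcpt8 (57.1 ± 11.45), Nkg7 (29.0 ± 8.13), Gzmc (12.3 ± 2.33), Gzme (7.66 ± 0.712), Ctsg (4.37 ± 0.370) and Mcpt4 (3.54 ± 0.661). The ranges of neighbours in this order were separate except for Ctsg and Mcpt4. With Arid3a-FLAG the level per kb was 189 ± 61.9 for Gzmb and 159 ± 53.5 for Cma1, which now overlapped. Gzmd stood at 16.2 ± 4.99 and overlapped Mcpt8 at 10.6 ± 4.49. Gzmc, at 6.77 ± 0.629, now stood above Nkg7 at 3.86 ± 0.440, and Gzme had the lowest mean, 1.09 ± 0.291, overlapping Mcpt4 at 1.48 ± 0.829. Gzmd thus made up 13.9% to 16.5% of all counts of the 9 chromosome 14 genes with LUC and 3.20% to 3.38% with Arid3a-FLAG, whereas Gzmb made up 49.2% to 52.8% and 54.1% to 58.2%.

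The cluster from Cma1 to Gzmb spans 320810 bases and holds 15 protein-coding genes, 6 of them outside the members. These 6 were left over when the members were chosen with this contrast known, so their values are a description too. Of them, 3 were tested and none passed in edgeR (0 at an unadjusted p under 0.05, and 0 in DESeq2 and limma-voom). Mcpt1, a mucosal mast cell chymase (56017971 to 56020384, plus strand), had 44.8, 35.0 and 45.8 CPM with LUC, against 32.5, 23.9 and 41.4 with Arid3a-FLAG. Its log2 fold change was -0.36 (SE 0.18, 95% interval -0.76 to 0.04, adjusted p = 0.235). Mcpt2, its neighbour and relative (56042041 to 56044642, plus strand), had 38.8, 42.3 and 50.8 CPM with LUC, against 31.5, 23.1 and 45.6 with Arid3a-FLAG. The log2 fold change of Mcpt2 was -0.40 (SE 0.21, 95% interval -0.86 to 0.06, adjusted p = 0.252). Without a filter on low counts Mcpt2 passed (adjusted p = 0.030). For both genes the groups overlapped through Arid3a-FLAG library 3. Cma2 stayed under 1 CPM (-0.11, SE 0.38, adjusted p = 0.883), and it overlaps the pseudogene Mcpt-ps1 on the other strand. Gzmg and Mcpt9 had 0 counts and Gzmn had 2 counts in all.

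The genes with log2 fold changes of -2 or less in the cluster, Mcpt8, Gzme and Gzmd, lie in a row with Ctsg among them. In the 200000 bases on either side, 11 of 14 protein-coding genes were tested and 1 passed, Ltb4r1, the high-affinity receptor for leukotriene B4. Ltb4r1 fell from 16.01, 14.1 and 14.1 CPM to 5.03, 3.25 and 6.59 CPM, the log2 fold change being -1.58 (SE 0.22, adjusted p = 0.0030, at most 0.0225 under the 14 alternatives). Cbln3 (-1.20, SE 0.34, adjusted p = 0.060), Nfatc4 (-0.80, SE 0.25, 0.080) and Sdr39u1 (-0.67, SE 0.21, 0.077), which overlaps Khnyn on the other strand, did not pass. Of the 11, 5 were lower and 0 higher by an unadjusted p under 0.05. The share over all tested genes was not taken for this threshold, so nothing is read from that count. The remaining tested flank genes, Dhrs1, Nop9, Ltb4r2, Adcy4, Ripk3, Nynrin and Khnyn, did not pass either. All 11 stood below 0, where the median of all tested genes was -0.03, but Dhrs1 and Nynrin turned above 0 with 1 library left out.

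**Figure D2:**
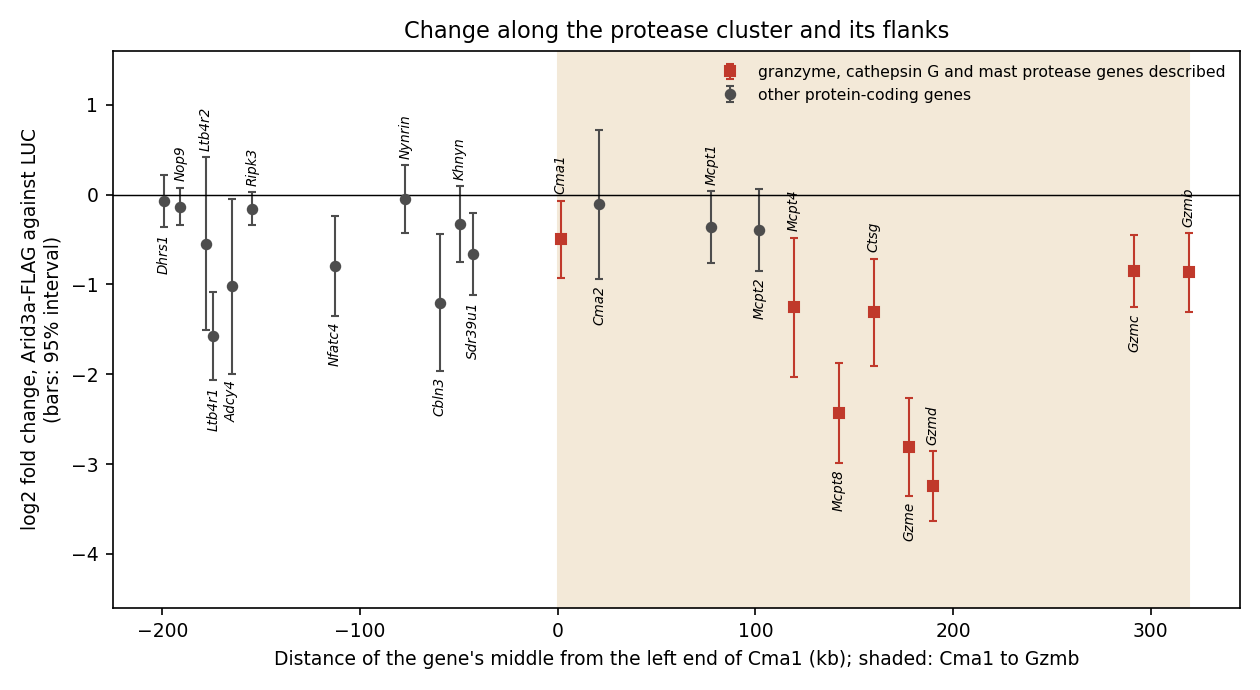
Log2 fold change with its 95% interval (vertical axis) of each tested protein-coding gene against the distance of its middle from the left end of Cma1 in kb, with the protease cluster shaded. Mcpt8, Gzme and Gzmd were at -2.43 to -3.25, while to their left Mcpt4 was at -1.26 and Cma1, Cma2, Mcpt1 and Mcpt2 were at -0.11 to -0.50.

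Markers of the cells that could supply these transcripts were read in the same libraries. Lymphocyte markers were almost absent: of 13 T cell markers 12 stayed under 1 CPM in every library, with Cd8a, Cd8b1, Cd2 and Trbc2 at 0 counts. Of 14 natural killer cell markers 12 did. The summed level of the T cell list ran from 4.70 to 6.08 CPM in the LUC libraries and 3.41 to 3.95 with Arid3a-FLAG, most of it Lck. That of the natural killer list ran from 16.1 to 19.8 and 4.97 to 8.22 CPM, most of it Klra1, an inhibitory Ly49 receptor, whose log2 level fell by 1.65 (SE 0.20, adjusted p = 0.00098). Perforin (Prf1) reached at most 0.216 CPM and granzyme A (Gzma) 0.0628 CPM, against 567 CPM for Gzmb. Of 15 neutrophil markers 12 stayed under 1 CPM, with Elane at or below 0.392 CPM. Mpo, Prtn3 and Ms4a3 were detected, at 8.80 to 9.77, 6.37 to 8.50 and 4.59 to 6.21 CPM with LUC. With Arid3a-FLAG these markers stood at 5.98 to 14.4, 2.79 to 5.02 and 1.74 to 1.99 CPM. Ctsg itself ran from 4.10 to 4.86 CPM with LUC and from 1.28 to 2.51 with Arid3a-FLAG.

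Some genes listed as mast cell and basophil markers, by contrast, were abundant, and some moved with the members. The lists were not checked for genes that other blood cells also express, and megakaryocyte markers summed to 6689 to 8421 CPM. Their level alone therefore does not show which cells held these transcripts, which was not tested. Gata2, in both lists, was the largest entry of each, at 1084 to 1431 CPM with LUC and 1203 to 1392 with Arid3a-FLAG. Fcer1a came next with LUC, at 680 to 860 CPM. Cd9, in the basophil list, had 424 to 557 and 459 to 509 CPM, and neither Gata2 nor Cd9 passed. Prss34, Cebpa and Mrgprb2 reached at most 10.5, 6.97 and 2.08 CPM. The 12 mast cell markers summed to 3080 to 3603 CPM in the LUC libraries and 2312 to 3031 with Arid3a-FLAG, and the 10 basophil markers to 2574 to 2979 and 2160.5 to 2481 CPM, so that the groups were narrowly apart in both lists. Of 9 tested mast cell markers 2 fell and 7 did not pass, while the tryptases Tpsb2 and Tpsab1 and the receptor Mrgprb1 were near 0. Of 10 tested basophil markers 4 fell and 6 did not pass. The 2 shared markers that fell were the IgE receptor chains Ms4a2 (-1.54, SE 0.19, adjusted p = 0.0014) and Fcer1a (-1.24, SE 0.16, 0.0015). The basophil list added the interleukin 3 receptor Il3ra (-0.76, adjusted p = 0.019, at most 0.104 when leaving out 1 library) and Itga2 (-0.72, 0.039, up to 0.163). Kit, the receptor that mast cells need to survive, did not pass (0.07, SE 0.18, 95% interval -0.31 to 0.46), nor did Hdc, which makes histamine (0.01, SE 0.17). In bulk RNA fewer cells of a type and less RNA per cell cannot be told apart, and the part of mast cell or basophil number in these differences was not tested.

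Library 3 of the Arid3a-FLAG group was high in the same genes. Among the Arid3a-FLAG libraries it held the highest level of 6 of the 8 tested chromosome 14 members, of all 9 tested mast cell markers and of 8 of 10 basophil markers, beside 33.7% of all tested genes. Carboxypeptidase A3 (Cpa3), a mast cell granule enzyme, was at 529, 641 and 651 CPM in the LUC libraries and at 317, 277 and 514 with Arid3a-FLAG. Gzmc and Nkg7 went the other way and were lowest in library 3. Without that library the log2 fold change was -3.52 for Gzmd, -2.80 for Mcpt8, -1.81 for Mcpt4, -1.61 for Ctsg, -1.16 for Gzmb and -0.78 for Cma1.

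Set against Cpa3 in the same library, the members parted. There were 0.232 to 0.270 Gzmd counts per Cpa3 count with LUC and 0.0410 to 0.0438 with Arid3a-FLAG, and 0.0780 to 0.109 against 0.0244 to 0.0302 for Mcpt8. For Gzmb the ratios were 0.751 to 0.884 and 0.725 to 0.745, almost touching. Cma1 stood higher against Cpa3 with Arid3a-FLAG, at 0.435 to 0.520 counts against 0.393 to 0.418 with LUC. Relative to Cpa3, Gzmd and Mcpt8 were thus lower in every Arid3a-FLAG library, Gzmb nearly level and Cma1 higher. This split depends on the reference, since Cpa3 itself had a log2 fold change of -0.72. Other mast cell markers differed from it, with Kit at 0.07, Hdc at 0.01 and Il1rl1 at 0.16, but Fcer1a at -1.24 and Ms4a2 at -1.54. Ratios to those markers were not taken.

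**Figure D3:**
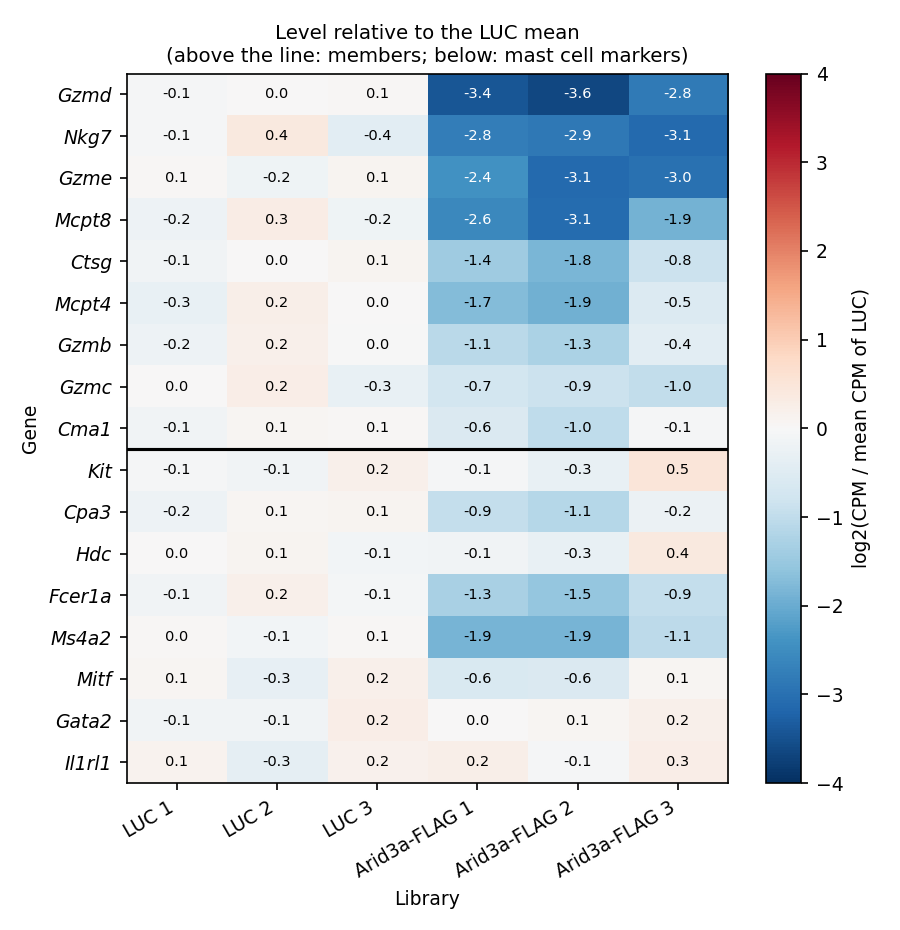
Log2 ratio of the level in each library to the mean of the LUC libraries (colour and printed value) for the 9 tested members above the line and 8 mast cell markers below it. Arid3a-FLAG library 3 was less low than libraries 1 and 2 for Gzmd (-2.82), Mcpt8 (-1.88) and Cma1 (-0.06), as for Cpa3 (-0.24), and Kit was at 0.48 there.

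Genes that store, activate and release granule proteases moved in both directions. Of 20 genes of the cytotoxic granule list 16 were tested, 3 fell, 2 rose and 11 did not pass, with a median log2 fold change of 0.12 beside -0.03 for all tested genes. Serglycin (Srgn) fell from 377, 537 and 439 CPM to 261, 256 and 281 CPM (log2 fold change -0.76, SE 0.13), with an adjusted p = 0.0071 that became 0.057 when Arid3a-FLAG library 1 was left out. Cathepsin C (Ctsc) fell from 136, 160.2 and 153 CPM to 111, 115 and 124 CPM (-0.36, SE 0.09, adjusted p = 0.044). Cst7, cystatin F, which inhibits cathepsin C, fell by 0.43 (SE 0.11, adjusted p = 0.045). The calls of Ctsc and Cst7 were lost in 5 and 4 of the 6 refits lacking 1 library (highest adjusted p = 0.204 and 0.186). Igf2r, a receptor that sorts granzymes and lysosomal enzymes, rose from 5.03, 3.01 and 4.91 CPM to 13.3, 13.2 and 9.79 CPM (1.48, SE 0.22, adjusted p = 0.0040). M6pr, a more abundant mannose 6-phosphate receptor of the list, did not pass (0.04, SE 0.08, adjusted p = 0.807). It had 180 to 197 CPM with LUC and 190.5 to 192 with Arid3a-FLAG. The fusion protein Stx11 rose by 0.46 (SE 0.09, adjusted p = 0.013, at most 0.097 when leaving out 1 library). The count of falls ran from 0 to 3 and that of rises from 1 to 4 with 1 library left out. The release genes Rab27a (0.14, SE 0.09), Unc13d (0.14, SE 0.09) and Stxbp2 (-0.06, SE 0.09) did not pass. Of the granzymes on other chromosomes only Gzmm was tested, at 0.809 to 1.55 CPM, and it did not pass in edgeR, DESeq2 or limma-voom (0.48, SE 0.33, adjusted p = 0.384; unadjusted p under 0.05 in 0 of 1).

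Serpins listed as inhibitors of granule proteases were lower in part, and whether each inhibits the members was not tested. Of 15 listed, 7 were tested, 3 fell, 1 rose and 3 did not pass, with a median of -0.49. Serpina3g, an inhibitor of cathepsins and serine proteases in blood cells, fell from 759, 755 and 730 CPM to 377, 412 and 339.8 CPM (-0.99, SE 0.10, adjusted p = 0.00049), and its neighbour Serpina3f fell by 0.87 (SE 0.10, adjusted p = 0.00088). Serpinb1a, which inhibits cathepsin G and neutrophil elastase, fell by 0.77 (SE 0.12, adjusted p = 0.0044). These 3 calls held in all 14 alternatives. Serpina3f and Serpina3g belong to a family of close relatives, and the split of their reads is uncertain. Serpinb8 rose by 0.56 (SE 0.15, adjusted p = 0.048, up to 0.195), a call lost in 7 of 14 alternatives. Serpinb9, the inhibitor of granzyme B, did not pass (-0.10, SE 0.14, 95% interval -0.40 to 0.20, adjusted p = 0.691).

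In the lists of mast cell and azurophil granule genes outside the cluster, every gene that passed was lower. Of 18 genes in the mast cell and basophil list 14 were tested, 2 fell and 12 did not pass, with a median of -0.09. The 2 that fell, Ms4a2 and Fcer1a, are IgE receptor chains and no granule contents. Receptors such as Kit are in this list too, and counts of mast cell granule genes below are of the whole list. With no filter on low counts, or without Arid3a-FLAG library 3 or LUC library 2, 4 genes of the list fell. Cpa3 did not pass (-0.72, SE 0.20, adjusted p = 0.056) but did in 7 of 14 alternatives, and Cd200r3, a receptor of basophils and mast cells, did not pass (-0.71, adjusted p = 0.143). Prss34, the other basophil serine protease in the lists, which lies outside the cluster, stood at 3.47 to 7.5 CPM in the LUC libraries and 4.82 to 10.5 with Arid3a-FLAG (0.18, SE 0.35, 95% interval -0.59 to 0.94, adjusted p = 0.782). Of 11 genes in the azurophil list 3 were tested and 2 fell. They were Ms4a3 (-1.55, SE 0.22, adjusted p = 0.0033) and proteinase 3 (Prtn3, -1.01, SE 0.25, adjusted p = 0.035, up to 0.153). The list is not limited to granule contents: Ms4a3 is none, and Cebpe is a transcription factor. Counts of azurophil genes below are of the whole list. The call of Prtn3 was lost in 3 of the 6 refits lacking 1 library. Myeloperoxidase (Mpo) did not pass, at 8.80 to 9.77 CPM with LUC, against 6.08, 5.98 and 14.4 with Arid3a-FLAG.

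**Figure D4:**
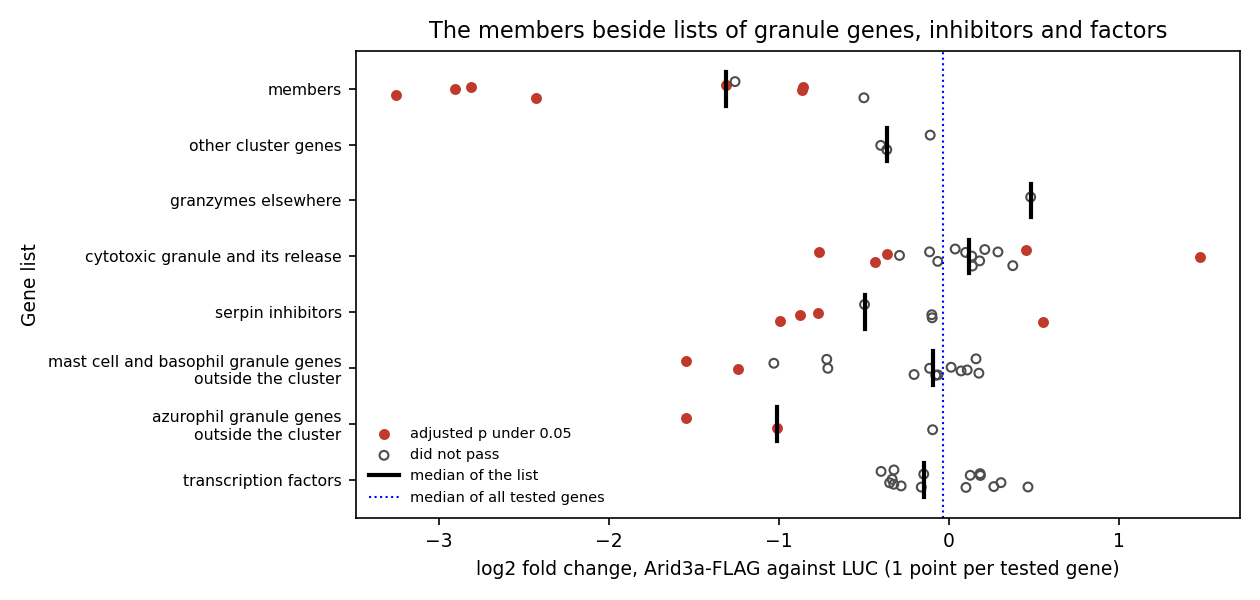
Log2 fold change (horizontal axis) of each tested gene of the 9 members and of 7 gene lists (rows), filled where the adjusted p was under 0.05, with the list medians as black bars and the median of all tested genes as a dotted line. The cytotoxic granule list had a median of 0.12 and the serpin list of -0.49, and no transcription factor was filled.

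Transcription factors known to act on these proteases in lymphocytes, mast cells or granulocytes gave no call. Of 21 listed, 15 were tested and 0 passed in edgeR, DESeq2 or limma-voom, while 3 stood higher and 4 lower by an unadjusted p under 0.05. Tbx21 and Gfi1 had 0 counts, and Eomes and Prdm1, which act with Tbx21 in cytotoxic cells, were at or below 0.174 CPM. Runx1 stood at 243 to 314 CPM in the LUC libraries and 347 to 356 with Arid3a-FLAG (0.31, SE 0.11, adjusted p = 0.105). Runx3 overlapped, at 182 to 278 and 184 to 239 CPM (-0.16, SE 0.15, adjusted p = 0.545). Stat5a, a transducer of interleukin signals, was at -0.32 (SE 0.10, adjusted p = 0.074). Stat5b had -0.35 (SE 0.12, adjusted p = 0.1001). Spi1, the myeloid factor PU.1, was at -0.40 (adjusted p = 0.089) and Cebpb at 0.47 (adjusted p = 0.102). Without LUC library 2, 4 factors were lower and 1 higher.

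The genes outside the members with profiles nearest to Gzmd over the 6 libraries were Clec4e, Gnai1, Col12a1, Tnfrsf8 and Ccl6. Likeness was the root mean square difference of log2 CPM profiles centred on their means, among genes of at least 5 CPM. It was 0.52 for the lectin receptor Clec4e, 0.56 for the G protein subunit Gnai1, 0.74 for the collagen Col12a1, 0.74 for the CD30 gene Tnfrsf8 and 0.74 for the chemokine Ccl6. Among the members Gzme (0.44), Mcpt8 (0.45) and Nkg7 (0.47) had smaller values than these 5, and Cma1 (1.37) had the largest. The members were chosen on this contrast, so that nearness restates the choice. The minimum of 5 CPM was not applied to the members, and Gzme had means of 7.02 CPM with LUC and 0.998 with Arid3a-FLAG. Scarcer genes outside the members were not compared. The levels of Clec4e were 19.6, 19.2 and 30.6 CPM with LUC, against 3.29, 3.66 and 6.72 with Arid3a-FLAG. This measure takes in the size of the group difference, so it is a description of these libraries.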

How the data were processed

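The deposited read counts per gene, whole numbers without normalization, were used for 6 libraries. The authors' tools were fastp, HISAT2 2.0.5 and featureCounts with build mm10, per the submitters' processing notes; the sources used here name neither their settings, the annotation nor the strand. Total RNA was used for the libraries, per the labels' protocols. Library sizes and tests left out the construct entry. Symbols, positions and exon lengths came from GENCODE M21 (GRCm38, that is mm10) by Ensembl identifier; 95 identifiers had no match. Upstream sequences came from RefSeq on GRCm38.p6, and all 10 members matched by symbol.

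The test was that of edgeR 4.0.16 under R 4.3.3, with filterByExpr, TMM factors, the quasi-likelihood F test with the group as the only term, two-sided, all 6 libraries, Benjamini-Hochberg over 13631 genes, threshold 0.05. CPM used TMM-scaled library sizes. A standard error was taken as the log2 fold change over the root of F. The steps were tested on simulated data. Counts in 6 libraries of 15728150 to 18249053 limit what low genes can show, and the floor of 3 counts covers counting error alone. No label says that replicates came from separate animals or cultures, so p-values measure only the spread between these libraries, which may be technical. Coding and upstream sequences were aligned globally with Biopython 1.88. Alternatives were other scalings (RLE, upper quartile), filters, DESeq2 1.42.0, limma-voom (limma 3.58.1), a replicate block, each library left out, the 20 most abundant genes left out and a threshold of 0.01.

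The members and lists were chosen with earlier results of these data known. Named genes were the members, the tested protein-coding genes of the cluster and its flanks, up to 4 genes of each list by smallest p (in both directions where called), and the 5 profiles nearest to Gzmd. List genes and markers named beyond these were chosen after their values were seen.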

Additional observations from a re-analysis of the deposited data

How the results depend on the processing

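The members were chosen on this contrast, so their calls restate that choice and are no sign of stability: Gzmd, Gzme, Mcpt8 and Nkg7 were called in all 14 alternatives, Gzmb and Gzmc in 10 each. Ctsg lost its call in 3 fits with 1 library left out and was not tested with a minimum of 5 CPM, which left 6 members called. Mcpt4 and Cma1 passed in 5 and 2. With 1 library left out, genes called higher ranged from 115 to 1191 (467 with all) and lower from 118 to 1095 (527), members lower from 4 to 8 (7), cluster and flank genes lower from 1 to 4 (1), cytotoxic granule genes lower from 0 to 3 and higher from 1 to 4, serpins higher from 0 to 1, mast cell granule genes lower from 2 to 4, azurophil genes lower from 1 to 2, and transcription factors lower from 0 to 4 and higher from 0 to 1. The lowest genome-wide counts were without Arid3a-FLAG library 1 and the highest without LUC library 2. No filter on low counts gave 869 higher and 1076 lower genes, 5 cluster and flank genes lower (1 in the cluster), 4 mast cell granule genes lower, and 1 transcription factor lower and 2 higher. DESeq2 gave 771 genes higher and 3 cluster and flank genes lower, and a threshold of 0.01 gave 125 higher and 137 lower. Upper quartile factors left 0 serpins higher, and a minimum of 5 CPM left 1 azurophil gene lower, since fewer genes were tested. With the replicate block, members lower were 8, cytotoxic granule genes lower 1, serpins higher 0 and mast cell granule genes lower 4; genes called were 410 higher and 530 lower. Same-numbered libraries had correlations of deviations of -0.103, -0.115 and 0.125, so the numbers were not taken to pair them. With 1 library left out, the log2 fold change ranged from -0.175 to 0.0693 for Dhrs1, -0.171 to 0.0863 for Nynrin and -0.282 to 0.0373 for Cma2, each changing sign; the cause was not tested. Scaling moved the median of all genes by less than 0.1 on the log2 scale. Genes under a few CPM, such as Mcpt4, Ctsg and Cma2, are limited by their counts.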

Other observations

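Other short motifs in the 250 bases upstream were counted on both strands, as a description. AGGAAG, an ETS factor core, occurred in 8 of the 10 members, all except Gzmb and Mcpt8, and in 29.5% of all RefSeq upstream sequences. Gzmc, Gzmd, Gzme and Gzmf held it on the other strand at -199, -199, -200 and -220, within closely like sequence, so their matches are not independent. The E-box CAGNTG occurred in 5 of 10 against 44.8%, with 3 matches each in Mcpt8 and Ctsg. The GATA factor letters AGATAA occurred in 0 of 10 against 9.99%, and TGATAA in 1, Mcpt4, against 7.94%. Only these spellings were searched, and forms that end in G, such as TGATAG in the Gzmd sequence, were not counted. TTCNNNGAA, the spacing that STAT factors bind, occurred in Ctsg and Nkg7 and in 7.02% of all. The AP-1 letters TGANTCA occurred in Gzmb alone, against 6.75%, and the TATA box letters TATAAA in Mcpt4 and Ctsg, against 12.4%.

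The chymases of the cluster form a second family of near copies. Mcpt4 was 86.7% identical to Mcpt1 and 79.3% to Mcpt2 in coding sequence, and Mcpt9 was 98.1% identical to Cma2. Mcpt4 shared 5.48% of its 50-base windows with Cma2 or Mcpt9, and Cma1 shared 5.46% with the pseudogene Gm48934. Mcpt8, Ctsg and Nkg7 shared 0.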
